A study of Mus musculus with 15 samples.

Results

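MYC-driven liver tumors sampled early in regression were compared with livers of the same genotype in which MYC was on but no tumor was present. The comparison was set by the sample labels: 4 regression arrays against 4 pre-tumor arrays, 8 of the 15 arrays of the study. All mice were FVB/N and ate doxycycline chow (200 mg/kg) until they were over 8 weeks old. Pre-tumor livers came from LAP-tTA x TRE-MYC mice taken 4 to 5 weeks after the drug was withdrawn. Regressing tumors came from LAP-tTA x TRE-MYC mice that had been off the drug for 8 to 9 weeks and were then returned to it for 72 hours. The other arrays were 4 tumors, taken 8 to 9 weeks off the drug from the same genotype, and 3 control livers of LAP-tTA mice without TRE-MYC. In these mice the LAP promoter drives the transactivator tTA in liver cells, and doxycycline stops tTA from switching on the MYC transgene. The groups compared therefore differ in tumor against liver tissue, in weeks off the drug and in the return to doxycycline, and these cannot be told apart. Nothing in the labels ties an array to its own animal, so p-values measure the spread between these samples, which may be technical.

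MYC is a transcription factor of cell growth. It pairs with MAX on E-box sequences and raises the making of ribosomes, nucleotides and the machinery of division, while the mature functions of hepatocytes often decline where it is overexpressed. When MYC is withdrawn from such liver tumors, the cells are known to stop dividing, many die and some take on hepatocyte features again. Dying cells are cleared by macrophages, which bind exposed phosphatidylserine directly or through bridging proteins and digest the engulfed material in lysosomes.

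Each array reported fluorescence for 41174 probes, of which 34908 carried a gene symbol. A level is the log2 signal of a probe relative to the 75th percentile of its array, so that a level of 0 lies at that percentile. A change is the mean level in regression minus the mean in pre-tumor liver, with its standard error from the limma model, 4 arrays in each group unless stated. A gene was called where limma's two-sided p, adjusted by Benjamini-Hochberg over 19249 genes, was under 0.05. The share of probes well above background was 61.7 to 68.9% in regression and 54.2 to 90.8% in pre-tumor liver (exact permutation test, two-sided, p = 0.343, where the smallest possible p was 0.0286). The signal of the E1A control spots, which match no mouse gene, ran from 4.12 to 9.14 in regression and from 5.74 to 76.1 in pre-tumor liver, with 2 pre-tumor arrays (1 and 4) standing high. The first principal component of the 8 arrays compared held 43.9% of the variance, and on it all 4 regression arrays (28.9 to 118) lay above all 4 pre-tumor arrays (−126 to −23.8). Pre-tumor array 3 stood apart on the second component, at −130. Every slide carried 1 pre-tumor and 1 regression array. The size of a change depends on how background was treated. Of 182 called genes among those named, 111 had a log2 change over 1.5 times smaller with normexp (another background correction), 51 had one in the authors' normalized table, and 0 had a larger one by that factor in either.

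Of the 19249 genes tested, 966 rose (5.02%) and 946 fell (4.91%), 1912 in all (9.93%). By at least 2-fold, 955 rose and 939 fell. Among the called genes, 1800 had no overlap between the 4 regression and the 4 pre-tumor arrays. Over all genes tested, called or not, all 4 regression arrays lay above all 4 pre-tumor arrays for 1405 genes (7.3%) and below them for 1926 genes (10%). The median change over all genes was −0.21, and values given below as relative to all genes have this subtracted. The balance of rises and falls followed the scaling: 50.5% of calls were rises here, against 63.8% where each array was centred on its median (1002 higher, 568 lower).

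**Figure D1:**
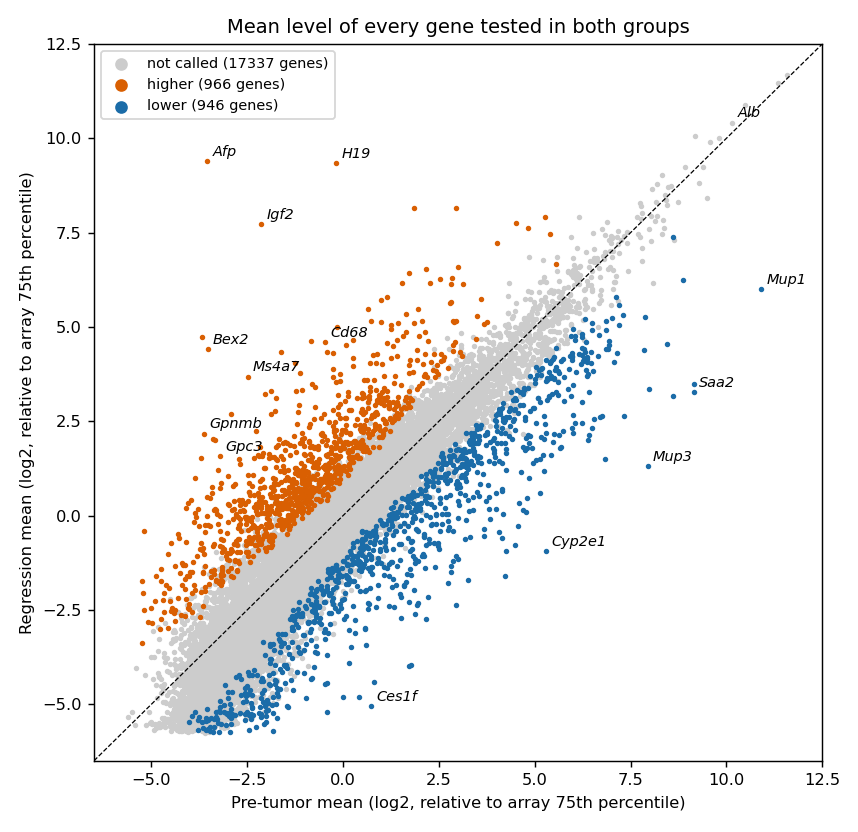
Mean level of each gene (log2 relative to the array's 75th percentile) in the 4 pre-tumor arrays on the horizontal axis and the 4 regression arrays on the vertical axis; orange points are the 966 genes called higher, blue points the 946 called lower and grey points the 17337 genes not called. The points called higher reach far above the diagonal at low pre-tumor levels, Afp most of all, and the points called lower include genes among the brightest in pre-tumor liver.

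Myc itself was read by 3 probes, all on chromosome 15 of mm9, the build of the array's annotation. The brightest, at 61819036-61819095, gave a change of 0.00 ± 0.43 and no call (limma adjusted p = 0.999). The probe at 61819528-61819587 gave levels of 2.50, 0.09, 1.72 and 0.24 in pre-tumor liver and −0.53, −0.23, −0.10 and −0.82 in regression. All 4 regression arrays were below all 4 pre-tumor arrays on this probe, and its change of −1.56 ± 0.50 missed the threshold (limma adjusted p = 0.0633 over 29953 named probes). Its mean level was 1.14 in pre-tumor liver, 4.23 in tumors, −0.42 in regression and −0.93 in controls. The third probe, at 61819627-61819687, gave 0.38 ± 0.42 (limma adjusted p = 0.634). Which of the probes can bind the transgene's transcript was not given in the sources used here. Mycn, a MYC relative, gave −0.76 ± 0.49 (limma adjusted p = 0.372) and was well above background on 3 arrays of each group. Among 16 genes of the MYC and MAX network, 1 rose: Trrap, a scaffold of histone acetyltransferase complexes (1.20 ± 0.35, limma adjusted p = 0.0383). The share called in this network was 6.25%, against 9.93% of all genes. The Trrap call was lost in 5 of the 8 fits that left out 1 array (pre-tumor 1 or 4, regression 1, 2 or 3), at adjusted p of up to 0.12.

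**Figure D2:**
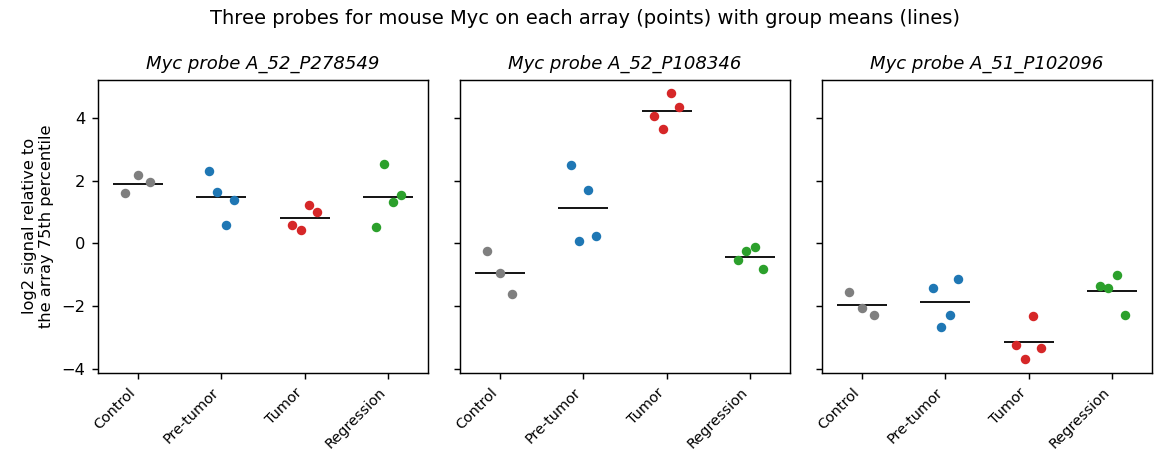
Level of the 3 Myc probes (log2 relative to the array's 75th percentile) in the 4 groups; each point is an array and each line a group mean. On the probe whose mean is 4.23 in tumors, the regression arrays (−0.82 to −0.10) lie below the pre-tumor arrays (0.09 to 2.50), while the brightest probe does not separate them.

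Fetal liver genes carried the largest rises. Afp, alpha-fetoprotein, the main serum protein of fetal liver and a marker of liver cancer, had levels of −4.75, −2.07, −2.49 and −4.89 in pre-tumor liver and of 9.35, 9.11, 9.74 and 9.39 in regression. It rose by 12.94 ± 0.55, or 7884-fold (limma adjusted p = 2.75e-09), and was well above background on 3 of the 4 pre-tumor arrays. Its level in regression was also above the tumor mean of 7.25 (change 2.14, limma adjusted p = 0.013). Igf2, the fetal insulin-like growth factor, had levels of −2.95, −2.44, −1.56 and −1.65 in pre-tumor liver and 7.49, 7.92, 8.23 and 7.24 in regression. Igf2 rose by 9.87 ± 0.52, or 935-fold (limma adjusted p = 2.07e-08). H19, a noncoding RNA from the imprinted locus that holds Igf2, was at −1.17, 0.11, 1.62 and −1.33 in pre-tumor liver and at 9.09, 9.23, 9.81 and 9.25 in regression, a rise of 744-fold. For all 3 genes the regression arrays lay close together and far above every pre-tumor array. The size of such changes depends on how dim signals are treated: with background modelled by normexp, Afp rose by 8.37 and Igf2 by 6.56.

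Afp and Alb, which encodes albumin, the main serum protein of adult liver, are neighbours on chromosome 5 and arose from a common ancestor. Alb did not follow Afp. Its levels were 9.91, 10.08, 11.20 and 9.44 in pre-tumor liver and 10.27, 10.60 and 10.37 on regression arrays 1, 3 and 4, its spot on array 2 having been dropped as an outlier. The groups overlapped, and the change was 0.26 ± 0.44 (n = 3 in regression, limma adjusted p = 0.786). Relative to the tumor mean of 7.80, Alb was higher in regression by 2.62 (limma adjusted p = 0.00093). The 250 bases before the start of each gene are printed here 5′ to 3′ from RefSeq (GRCm38.p6, plus strand), because this pair of related genes went different ways. Capitals mark GTTAAT, one arm of the palindromic site of the hepatocyte factor HNF1, whose first base lies at −105 in Afp (chr5:90490464-90490713) and at −32 in Alb (chr5:90460620-90460869).
Afp: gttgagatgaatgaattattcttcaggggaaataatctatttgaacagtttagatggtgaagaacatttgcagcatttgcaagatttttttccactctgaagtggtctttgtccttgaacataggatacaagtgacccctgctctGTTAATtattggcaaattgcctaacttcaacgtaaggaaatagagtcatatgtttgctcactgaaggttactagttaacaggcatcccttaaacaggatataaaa
Alb: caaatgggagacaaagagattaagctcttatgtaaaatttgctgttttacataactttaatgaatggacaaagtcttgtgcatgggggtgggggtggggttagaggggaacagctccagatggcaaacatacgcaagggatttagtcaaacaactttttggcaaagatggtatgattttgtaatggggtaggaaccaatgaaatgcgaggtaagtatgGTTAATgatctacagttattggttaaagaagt
The letters GTTAAT, searched on both strands after these sequences had been seen, were in 6.27% of the 14476 tested genes with a promoter in the table and in 6.43% of all 32851 promoters of this length. They were in 4.72% of the 742 called-higher and 9.62% of the 717 called-lower promoters. The E-box CACGTG, the site of MYC and MAX, was in 8.52% of tested, 8.49% of called-higher and 8.79% of called-lower promoters. For the E2F letters TTTGGCGC the shares were 0.739% of tested, 0.539% of called-higher and 0.558% of called-lower promoters, and for TTTGAA, of cell cycle promoters, 15.1, 14.7 and 16.9% in that order. The full palindromic HNF1 site was in 1 of the 14476 tested promoters and in neither of the 2 printed here. It was in 0 of the 742 called-higher and 0 of the 717 called-lower promoters. For the letters of the ISRE, a site of interferon response genes, the shares were 3.36% of tested, 3.37% of called-higher and 5.44% of called-lower promoters. These are counts of letters and not of bound sites.

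Of 24 oncofetal and progenitor genes 5 rose and 0 fell, with a median change 0.08 above that of all genes. Besides Afp these were Gpc3, Dlk1, Epcam and Igf2bp3. Gpc3, glypican-3, a cell surface proteoglycan of fetal liver and liver cancer, had levels of −3.02, −3.86, −4.62 and −1.40 in pre-tumor liver and 2.04, 2.02, 2.06 and 0.15 in regression. It rose by 4.79 ± 0.88 (limma adjusted p = 0.00201) and was well above background on 2 pre-tumor arrays. Gpc3 differed from Afp in tumors, where its mean was −3.52, and regression exceeded tumor by 5.09 (limma adjusted p = 0.00097). Dlk1, a surface protein of fetal liver progenitors, was at −2.10, −2.93, −2.18 and −1.25 in pre-tumor liver and at 2.07, 2.72, 1.86 and −0.33 in regression, and rose by 3.69 ± 0.57. Epcam, an epithelial adhesion protein of progenitors and bile ducts, rose by 2.47 ± 0.59, and Igf2bp3, an RNA-binding protein of fetal tissues, by 2.14 ± 0.49 (limma adjusted p of 0.0134 or lower for these 3). The rise was thus of 5 members, and the other 19 were not called.

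Imprinted genes, which are expressed from the copy of only 1 parent, rose in 7 of 22 cases and fell in 0 (median 0.93 relative to all genes; 7 to 8 rises over 21 alternative settings). Besides Igf2, H19 and Dlk1 these were Peg3, Meg3, Cdkn1c and, named after its values were seen, Grb10, an adaptor that dampens insulin signalling (5.25 ± 0.60). Peg3, a zinc finger protein, was at −0.68, 1.06, −0.84 and −0.15 in pre-tumor liver and at 4.97, 5.44, 4.41 and 5.16 in regression. The noncoding RNA Meg3 was at −1.31, −0.34, −1.06 and −0.20 in pre-tumor liver and at 3.24, 3.02, 3.59 and 3.79 in regression, against a tumor mean of −0.09. Meg3 rose by 4.14 ± 0.38 (limma adjusted p = 8.13e-06), although its probes disagreed, from −0.34 to 4.14. Cdkn1c, which encodes the cell cycle inhibitor p57, was at −0.31, −1.25, −0.35 and −0.39 in pre-tumor liver and at 1.91, 2.91, 2.10 and 1.75 in regression. It rose by 2.74 ± 0.36 (limma adjusted p = 0.00013), and its tumor mean was 3.17.

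The Bex genes, small X-linked genes first described in brain, rose in 4 of 4 tested cases (median 6.35 relative to all genes). Bex2 was at −4.38, −3.25, −4.63 and −1.88 in pre-tumor liver, where 1 array was well above background, and at 4.40, 4.99, 3.87 and 4.35 in regression. It rose by 7.94 ± 0.58 (limma adjusted p = 1.07e-06), and by 3.48 with normexp. Bex3 was at 1.49, 2.38, 2.34 and 1.13 in pre-tumor liver and at 8.04, 8.97, 8.14 and 7.48 in regression, and rose by 6.32 ± 0.51. Bex1 rose by 5.96 ± 0.56 and Bex4 by 4.86 ± 0.50. No regression array overlapped a pre-tumor array for any of the 4 genes, and the same held for 1800 of all 1912 called genes. Tumor means were 5.68 for Bex1, 4.98 for Bex2 and 8.30 for Bex3, and regression against tumor gave no call for Bex1 or Bex2 (limma adjusted p = 0.17 and 0.64).

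The largest rises among measured genes also held Tff3, Acss1 and Adgrg1. Tff3, a trefoil peptide of mucous epithelia, was at −0.46, −1.10, −0.92 and −0.82 in pre-tumor liver and at 4.47, 5.08, 4.64 and 4.30 in regression, a rise of 5.45 ± 0.44 (limma adjusted p = 3.16e-06) beside a tumor mean of 1.53. Acss1, a mitochondrial enzyme that activates acetate, rose by 5.61 ± 0.42, and Adgrg1, an adhesion receptor well above background on 2 pre-tumor arrays, by 5.42 ± 0.46. In the list of bile duct genes 3 of 16 rose, namely Tff3, the tight junction gene Cldn7 (3.46 ± 0.63) and Epcam, and 0 fell (median 0.23 relative to all genes). For a gene well above background on no array of a group, an at-least fold is given, which sets the other group against the lowest signal well above background or the dim probe's own signal where that is higher. For the genes given so, this fold equalled that of the fitted change or lay just under it. It thus carries the error of the fit and is no guaranteed minimum. These folds hold on the scale of the processed signals alone, and the same changes were smaller in the authors' normalized table and with normexp. Among genes well above background on all 4 regression arrays and on no pre-tumor array, Myo15b was at least 27.7-fold higher on that scale, with log2 changes of 1.58 in the authors' table and 0.44 with normexp. F2rl1, a protease-activated receptor, was at least 19.7-fold higher on that scale (1.88 and 0.64 in the other 2). Thbs2, a matrix protein of activated fibroblasts, was at least 13.0-fold higher (1.38 and 0.37), Antxr1 at least 9.78-fold (0.95 and 0.22) and Ifnlr1 at least 8.99-fold (0.74 and 0.17), with limma adjusted p of 0.000308 or lower for all 5 on the processed signals. In tumors, Thbs2 and Antxr1 were likewise not well above background on any of the 4 arrays.

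**Figure D3:**
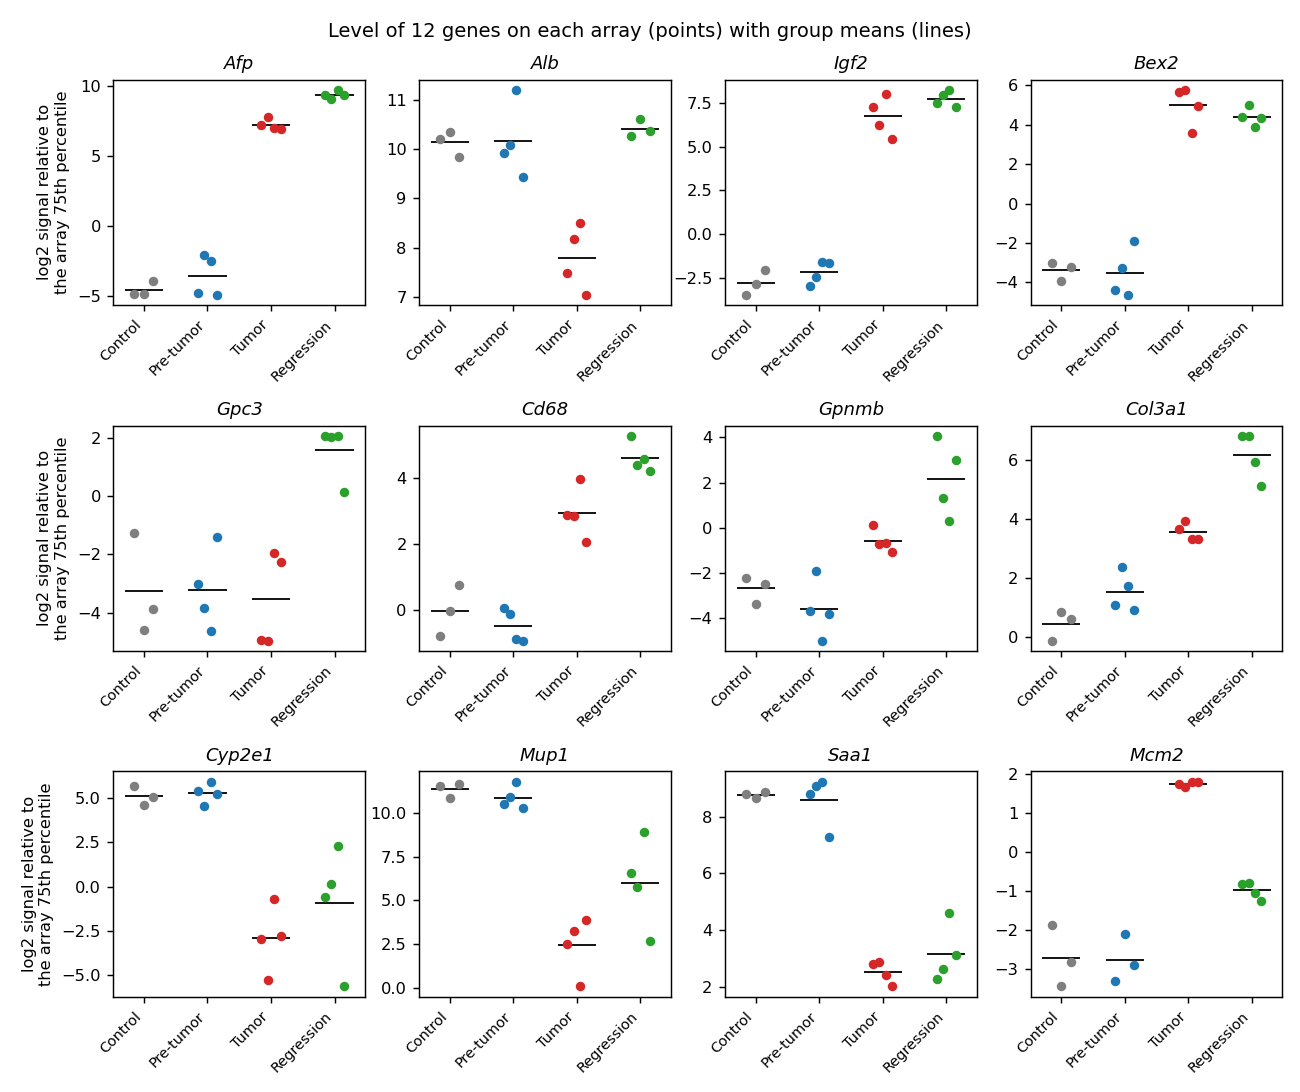
Level of 12 genes (log2 relative to the array's 75th percentile) in control, pre-tumor, tumor and regression arrays; each point is an array and each line a group mean. In regression Igf2 and Bex2 are near their tumor levels, Afp, Gpc3, Gpnmb and Col3a1 lie above every tumor array, Alb overlaps pre-tumor liver, and Saa1 and Cyp2e1 lie far below it.

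Macrophage genes rose together. Of 26 tested markers of macrophages and monocytes (27 in the list) 18 rose and 0 fell, with a median change 2.70 above that of all genes (17 to 20 rises over 21 alternative settings). Their summed level (linear signal over the array's 75th percentile) was 33.4 to 73.7 in pre-tumor liver and 361 to 879 in regression. Their mean log2 level was −0.61 to 0.35 in pre-tumor liver, 0.52 to 0.76 in tumors and 2.20 to 2.98 in regression. In bulk tissue, more cells of a type and more RNA per cell cannot be told apart, and the same holds for every list of cell markers here. Cd68, a lysosomal membrane protein of macrophages, was at 0.05, −0.13, −0.88 and −0.92 in pre-tumor liver and at 5.27, 4.38, 4.55 and 4.20 in regression. It rose by 5.07 ± 0.44 (limma adjusted p = 5.05e-06) and was also higher in regression than in tumors by 1.66 (limma adjusted p = 0.016). Gpnmb, a glycoprotein of macrophages loaded with lipid or debris, was at −3.71, −1.93, −5.01 and −3.83 in pre-tumor liver and at 4.07, 1.32, 0.28 and 2.99 in regression. It varied widely among the regression arrays, highest on array 1 and lowest on array 3. Gpnmb rose by 5.79 ± 0.73 (limma adjusted p = 9.28e-05), with 2 pre-tumor arrays well above background on this probe. Ms4a7, a membrane protein of macrophages, was at −2.51, −3.30, −2.70 and −1.46 in pre-tumor liver and at 4.97, 3.32, 2.98 and 3.46 in regression. It rose by 6.17 ± 0.56, the receptor for fungal glucans Clec7a by 5.35 ± 0.54, and the signalling adaptor Tyrobp by 3.90 ± 0.38 (limma adjusted p of 1.71e-05 or lower for these 3). For all 18 genes called, every regression array was above every pre-tumor array, and 1800 of all 1912 called genes likewise had no overlap.

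Genes for the uptake of apoptotic cells rose in 10 of 20 cases and fell in 0 (median 1.41 relative to all genes, 8 to 11 rises over the alternatives). Axl, a receptor for bridging proteins on dying cells, was at −3.08, −4.39, −4.97 and −3.74 in pre-tumor liver, where 1 array was well above background, and at 0.95, 0.29, 0.01 and 0.11 in regression. It rose by 4.39 ± 0.43 (limma adjusted p = 1.54e-05), by 2.01 in the authors' normalized table and by 0.71 with normexp. Its relative Mertk was at −0.58, −0.36, −1.01 and −0.25 in pre-tumor liver and at 2.94, 2.03, 1.77 and 2.04 in regression, and rose by 2.74 ± 0.32. The 3 chains of C1q, which tags dying cells and starts the classical complement pathway, rose by 4.42 ± 0.53 (C1qa), 3.78 ± 0.46 (C1qb) and 4.16 ± 0.50 (C1qc). Each of these genes separated the groups without overlap, as did 1800 of all 1912 called genes.

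Lysosomal genes rose in 14 of 28 cases and fell in 0 (median 1.30 relative to all genes). Laptm5, a lysosomal membrane protein of blood cells, was at 1.03, 1.22, 0.41 and −0.11 in pre-tumor liver and at 6.20, 5.18, 5.64 and 4.88 in regression, and rose by 4.84 ± 0.41 (limma adjusted p = 4.5e-06). The protease gene Ctsd rose by 3.25 ± 0.45 (n = 3 in regression) and Psap, which encodes activators of lipid breakdown, by 2.80 ± 0.36. The mean level of the list was 1.90 to 2.80 in pre-tumor liver, 1.87 to 2.26 in tumors and 3.10 to 3.85 in regression. The count was 9 with the slide as a block, 9 without regression array 1 and 6 without the 4 arrays of high E1A signal, a setting added after the data were seen that keeps 2 pre-tumor arrays.

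Markers of Kupffer cells, the resident macrophages of the liver, did not move as a block: 3 of 11 rose and 2 fell (median −0.21 relative to all genes). Cd5l, a secreted protein of tissue macrophages, was at 3.64, 3.09, 2.79 and 2.47 in pre-tumor liver and at 7.37, 6.05, 6.44 and 6.50 in regression, and rose by 3.59 ± 0.41 (limma adjusted p = 4.08e-05). Timd4, a phosphatidylserine receptor, rose by 3.07 ± 0.53 and the iron exporter Slc40a1 by 2.04 ± 0.47. The complement gene C6 fell by 3.49 ± 0.49 on the log2 scale, and so did Marco, a scavenger receptor named after its values were seen (−2.25 ± 0.57, limma adjusted p = 0.0193). The lower count of the list was 1 without pre-tumor array 1 or 2 or regression array 1 or 4. The lectin Clec4f, a marker of resident Kupffer cells, was at 3.48, 1.53, 3.13 and 2.66 in pre-tumor liver and at 0.63, 2.31, 2.68 and −1.04 in regression. Its groups overlapped, and the change was −1.55 ± 0.68 (limma adjusted p = 0.172).

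**Figure D4:**
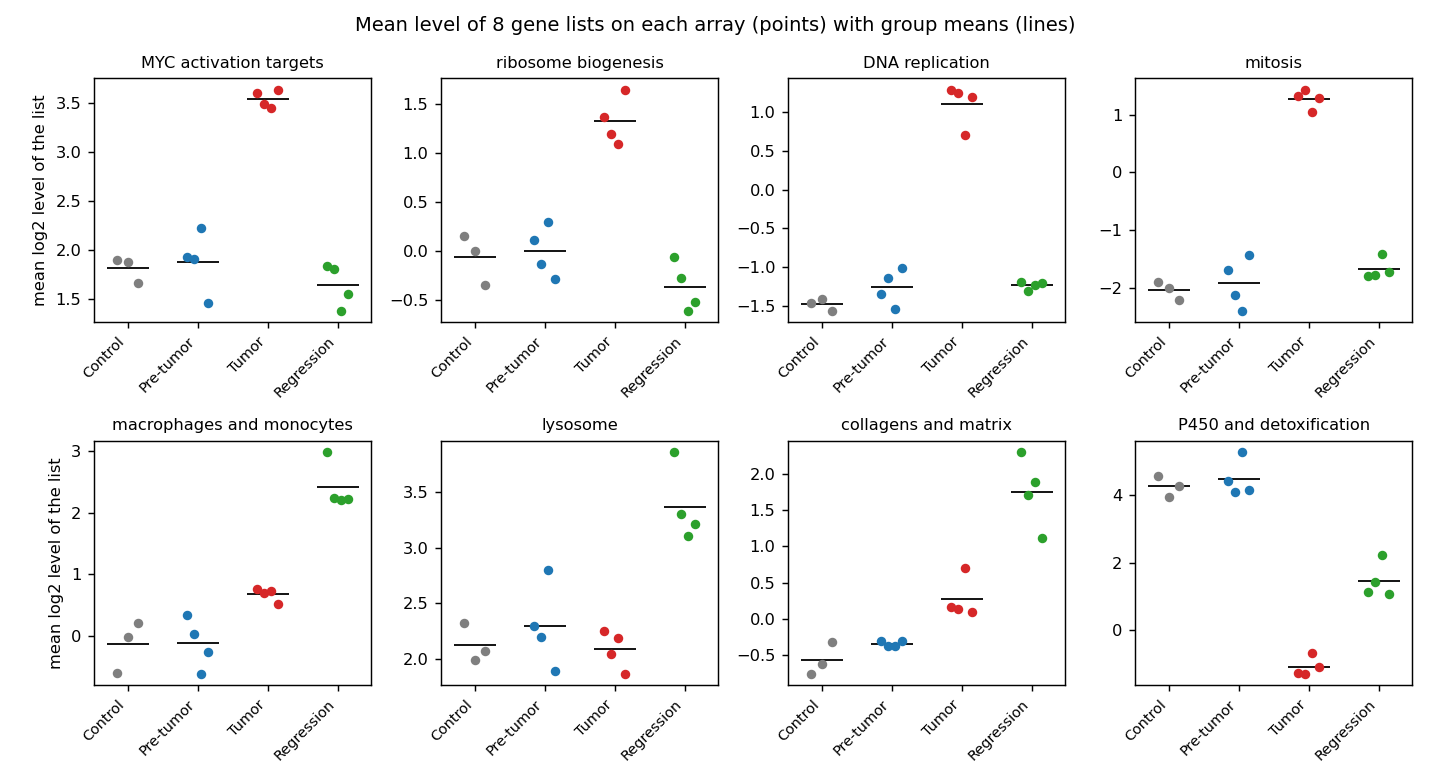
Mean level of the tested members of 8 gene lists (log2 relative to the array's 75th percentile) on each array, by group; each point is an array. Macrophages and monocytes reach 2.20 to 2.98 in regression against −0.61 to 0.35 in pre-tumor liver, and cytochrome P450 and detoxification genes 1.09 to 2.25 against 4.11 to 5.28.

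Other blood cell lists moved less. Of 21 T and NK cell markers 6 rose and 0 fell (median 1.08 relative to all genes, 6 to 9 rises over the alternatives). Cd3g, a chain of the T cell receptor complex, was at −0.64, −1.01, −1.23 and −0.72 in pre-tumor liver and at 1.75, 0.73, 0.55 and 0.94 in regression. It rose by 1.89 ± 0.30, Cd3e of the same complex by 1.95 ± 0.34, the adhesion protein Cd2, well above background on 2 pre-tumor arrays, by 3.16 ± 0.50 and Thy1, which stromal cells also carry, by 2.05 ± 0.42 (limma adjusted p of 0.00433 or lower). Of 18 genes of antigen presentation 3 rose and 1 fell (median 0.23 relative to all genes). The 3 were the class II chains H2-Aa (3.47 ± 0.78) and H2-Ab1 (3.21 ± 0.78) and their chaperone Cd74 (3.26 ± 0.68). H2-Aa was at 4.17, 3.49, 1.91 and 1.75 in pre-tumor liver and at 7.56, 6.23, 6.30 and 5.09 in regression, with no overlap. H2-Ab1 lost its call without regression array 1 (2.83, limma adjusted p = 0.0547), and the lower call, the peptide transporter gene Tap2 (−1.40 ± 0.42, adjusted p = 0.0489), was lost in all 8 fits that left out 1 array.

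Of 13 B and plasma cell markers 1 rose, the B cell receptor regulator Cd22 (4.07 ± 0.70), and 1 fell, Derl3 of protein quality control (−1.71 ± 0.43), a call lost without pre-tumor array 4 or regression array 2 (limma adjusted p of up to 0.0616). The mean of the Cd22 probes gave 2.30 (limma adjusted p = 0.00143). None of 14 neutrophil markers was called in limma, where 1 was higher and 2 lower at an unadjusted p under 0.05. Without pre-tumor array 2, 3 neutrophil markers fell, among them Retnlg, whose change was −2.10 ± 1.01 (limma adjusted p = 0.216) with all arrays and −3.34 (limma adjusted p = 0.0078) without it. Of 13 erythroid genes 2 rose, the anion exchanger Slc4a1 (2.56 ± 0.45) and the transferrin receptor Tfrc (1.37 ± 0.38). The Tfrc call was lost in 6 of 8 fits without 1 array (pre-tumor 1, 2 or 3, regression 1, 2 or 4). Of 12 pancreas and gut genes 0 were called in limma, with 0 higher and 2 lower at an unadjusted p under 0.05. Of 10 fat cell genes 2 rose, the fatty acid carrier Fabp4 (3.02 ± 0.51, n = 3 in pre-tumor liver) and the lipase Lpl (2.77 ± 0.38), which macrophages also make, and 1 fell, Car3 (−3.51 ± 0.84).

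Genes of the extracellular matrix rose in 19 of 28 cases and fell in 0 (29 in the list; median 2.48 relative to all genes, 16 to 20 rises over the alternatives). Col1a1, a chain of the main fibrillar collagen, was at 0.58, 0.47, 0.07 and −0.10 in pre-tumor liver and at 5.36, 5.23, 4.99 and 3.01 in regression. It rose by 4.39 ± 0.46 (limma adjusted p = 2.44e-05), and regression exceeded tumor by 1.90 (limma adjusted p = 0.0095). Col3a1, which forms fibrils with it, was at 1.08, 2.37, 1.73 and 0.92 in pre-tumor liver and at 6.82, 6.82, 5.94 and 5.12 in regression, and rose by 4.65 ± 0.43. Regression array 4 was the lowest of its group for both genes and still above every pre-tumor array. Col1a2 rose by 4.72 ± 0.46 and Col5a2 by 3.57 ± 0.40 (limma adjusted p of 4.03e-05 or lower). Probes disagreed for Col3a1 (−1.21 to 4.65) and Col1a2 (−0.58 to 4.72), and the mean of the Col1a2 probes gave 1.41 with no call (limma adjusted p = 0.123). The mean level of the list was −0.37 to −0.31 in pre-tumor liver, 0.10 to 0.70 in tumors and 1.12 to 2.30 in regression.

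Stellate cells, the pericytes of liver that make collagen when activated, and fibroblasts were read by 21 genes, of which 4 rose and 0 fell (median 1.12 relative to all genes). Pdgfrb, their receptor for platelet-derived growth factor, was at −2.35, −1.40, −2.01 and −1.05 in pre-tumor liver and at 2.55, 1.58, 1.51 and 1.86 in regression. It rose by 3.58 ± 0.48 (limma adjusted p = 0.000144), the globin Cygb of stellate cells by 2.94 ± 0.40, Vim, which encodes vimentin, by 2.30 ± 0.39, and Thy1 is also in this list. The count was 7 without pre-tumor array 3 and 7 without regression array 4. The matrix proteoglycan gene Lum gave 1.50 ± 0.56 (limma adjusted p = 0.11) and was called without regression array 4 (2.01, limma adjusted p = 0.0262) and in the authors' normalized table (1.01, limma adjusted p = 0.0277).

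Endothelial genes split. Of 25, 3 rose and 4 fell (median 0.44 relative to all genes), and the lower count was 2 without pre-tumor array 2, pre-tumor array 3 or regression array 4. The 3 that rose were the adhesion gene Pecam1 (1.71 ± 0.33), the receptor gene Tie1 (1.76 ± 0.33) and Cdh5, which encodes the junction protein VE-cadherin and was named after its values were seen (1.59 ± 0.33). The 4 that fell included Clec4g, a lectin of the liver sinusoid, and Wnt2, a signal from sinusoids near the central vein. Clec4g was at 2.64, 2.75, 3.44 and 2.24 in pre-tumor liver and at −1.21, 0.30, 0.79 and −1.05 in regression, and fell by 3.06 ± 0.54 on the log2 scale (limma adjusted p = 0.00153). The mean of the Clec4g probes gave −1.44 (limma adjusted p = 0.0267). Wnt2, well above background on every pre-tumor array but on no regression array, was at least 7.18-fold lower on the processed signals (limma adjusted p = 0.00237), with log2 changes of −0.66 in the authors' normalized table and −0.15 with normexp. The other 2 that fell, named after their values were seen, were the sinusoidal nuclease Dnase1l3 (−1.80 ± 0.46) and the WNT amplifier Rspo3 (−2.25 ± 0.60).

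Detoxification genes of the mature hepatocyte fell almost as a block. Of 31 tested genes of cytochrome P450 and detoxification (34 in the list) 26 fell and 0 rose, with a median of −2.64 relative to all genes (22 to 27 falls over the alternatives). Cyp2e1, which oxidises ethanol and small solvents, was at 5.41, 4.57, 5.94 and 5.26 in pre-tumor liver and at −0.60, 0.18, 2.27 and −5.63 in regression. Regression array 4 was the lowest by a wide margin, and all 4 were below every pre-tumor array. Cyp2e1, Cyp2c54 and Cyp2c38 were each well above background on 3 regression arrays. Cyp2e1 fell by 6.24 ± 1.23 on the log2 scale, or 75.3-fold (limma adjusted p = 0.00349), and missed the threshold without the 4 arrays of high E1A signal (−6.20, limma adjusted p = 0.0504). Cyp2c29 was at 5.91, 5.18, 7.10 and 5.79 in pre-tumor liver and at 1.84, 2.31, 2.80 and 1.78 in regression, and fell by 3.82 ± 0.40. Cyp2c54 was at 3.84, 3.59, 5.23 and 4.22 in pre-tumor liver and at −1.25, −1.86, 0.29 and −3.59 in regression, and fell by 5.82 ± 0.66. Cyp2j5, an epoxygenase, fell by 5.28 ± 0.51, Cyp2c38 by 5.31 ± 0.60 and the glucuronidating enzyme gene Ugt2a3 by 4.06 ± 0.40. Pre-tumor array 3 was the highest of its group for Cyp2e1, Cyp2c29 and Cyp2c54. Probes of the Cyp2c family are for near-identical sequences and may bind more than 1 member.

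Bile acid genes fell in 9 of 18 cases and rose in 0 (median −0.96 relative to all genes, 7 to 9 falls over the alternatives). Cyp7b1, an oxysterol hydroxylase of the acidic pathway that is higher in males, was at 1.39, 1.83, 1.74 and 2.15 in pre-tumor liver and at −5.14, −4.42, −2.04 and −4.20 in regression, where 1 array was well above background. It fell by 5.73 ± 0.56 on the log2 scale (limma adjusted p = 1.41e-05), with changes of −2.95 in the authors' normalized table and −1.40 with normexp. Slco1a1, a carrier for bile salts that was well above background on 1 regression array, fell by 5.72 ± 0.67 (−2.87 in the authors' table, −1.22 with normexp). Baat, which conjugates bile acids, fell by 4.15 ± 0.43, and the uptake carrier Slco1b2 by 3.56 ± 0.42. Falls of the conjugating enzyme and of both carriers had limma adjusted p of 5.8e-05 or lower.

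Genes that mark the zones of the liver lobule were mostly lower around the central vein and mixed around the portal vein. Around the central vein 9 of 17 fell and 0 rose (median −1.94 relative to all genes, 8 to 11 falls over the alternatives). Besides Cyp2e1 these included the drug oxidase Cyp1a2 (−4.54 ± 0.64), the glutamate carrier Slc1a2 (−4.13 ± 0.50) and the ornithine enzyme gene Oat (−3.43 ± 0.46). Glul, glutamine synthetase of the innermost pericentral cells, was not called: it was at 5.88, 5.03, 6.74 and 5.05 in pre-tumor liver and at 5.88, 5.43, 5.87 and 4.22 in regression (−0.33 ± 0.47, limma adjusted p = 0.741). Around the portal vein 4 of 13 fell and 2 rose (median −0.69 relative to all genes). Pigr, the carrier of IgA into bile, fell by 4.26 ± 0.53. Cyp2f2 was at 7.07, 6.47, 8.26 and 6.83 in pre-tumor liver and at 4.03, 3.81, 4.84 and 4.53 in regression, and fell by 2.85 ± 0.67 (limma adjusted p = 0.0111), while its tumor mean was −0.89. The 2 that rose were the aldehyde dehydrogenase Aldh1b1 (2.26 ± 0.46) and the protease Ctsc (1.65 ± 0.35). The lower count was 2 with the slide as a block and without pre-tumor array 3, pre-tumor array 4, regression array 1 or regression array 2. Without pre-tumor array 3 the periportal median was −0.15, with 2 genes higher and 2 lower.

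Genes that differ between the sexes in mouse liver fell in both lists, and the labels give no sex. Of 15 male-biased genes 13 fell and 0 rose (17 in the list; median −2.90 relative to all genes, 11 to 14 falls over the alternatives). Of 20 female-biased genes 7 fell and 2 rose (median −1.47 relative to all genes), with Cyp2a4 at −3.86 ± 0.41, Cyp3a41a at −2.21 ± 0.36 and the peroxisomal transporter Abcd2 at 3.26 ± 0.59. Nudt7, a peroxisomal enzyme of the male-biased list, fell by 3.62 ± 0.37. All 4 tested major urinary proteins, pheromone carriers that male liver secretes in bulk, fell (7 in the list; median −5.07 relative to all genes). Mup1 was at 10.55, 10.94, 11.81 and 10.29 in pre-tumor liver and at 6.58, 5.77, 8.93 and 2.69 in regression. It varied widely among the regression arrays, highest on array 3 and lowest on array 4, and fell by 4.90 ± 1.01 on the log2 scale (limma adjusted p = 0.00467). Mup3 was at 7.78, 8.76 and 7.30 on pre-tumor arrays 2 to 4 and at 1.23, 0.87, 4.28 and −1.15 in regression, and fell 99.7-fold (−6.64 ± 0.86, n = 3 in pre-tumor liver). These genes are near-identical copies, so their probes may read more than 1 of them. None of 5 sex chromosome genes was called in limma, with 0 higher and 1 lower at an unadjusted p under 0.05. Xist gave −0.48 ± 0.85 (limma adjusted p = 0.795) and the Y-linked Ddx3y −0.56 ± 0.33 (limma adjusted p = 0.322).

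**Figure D5:**
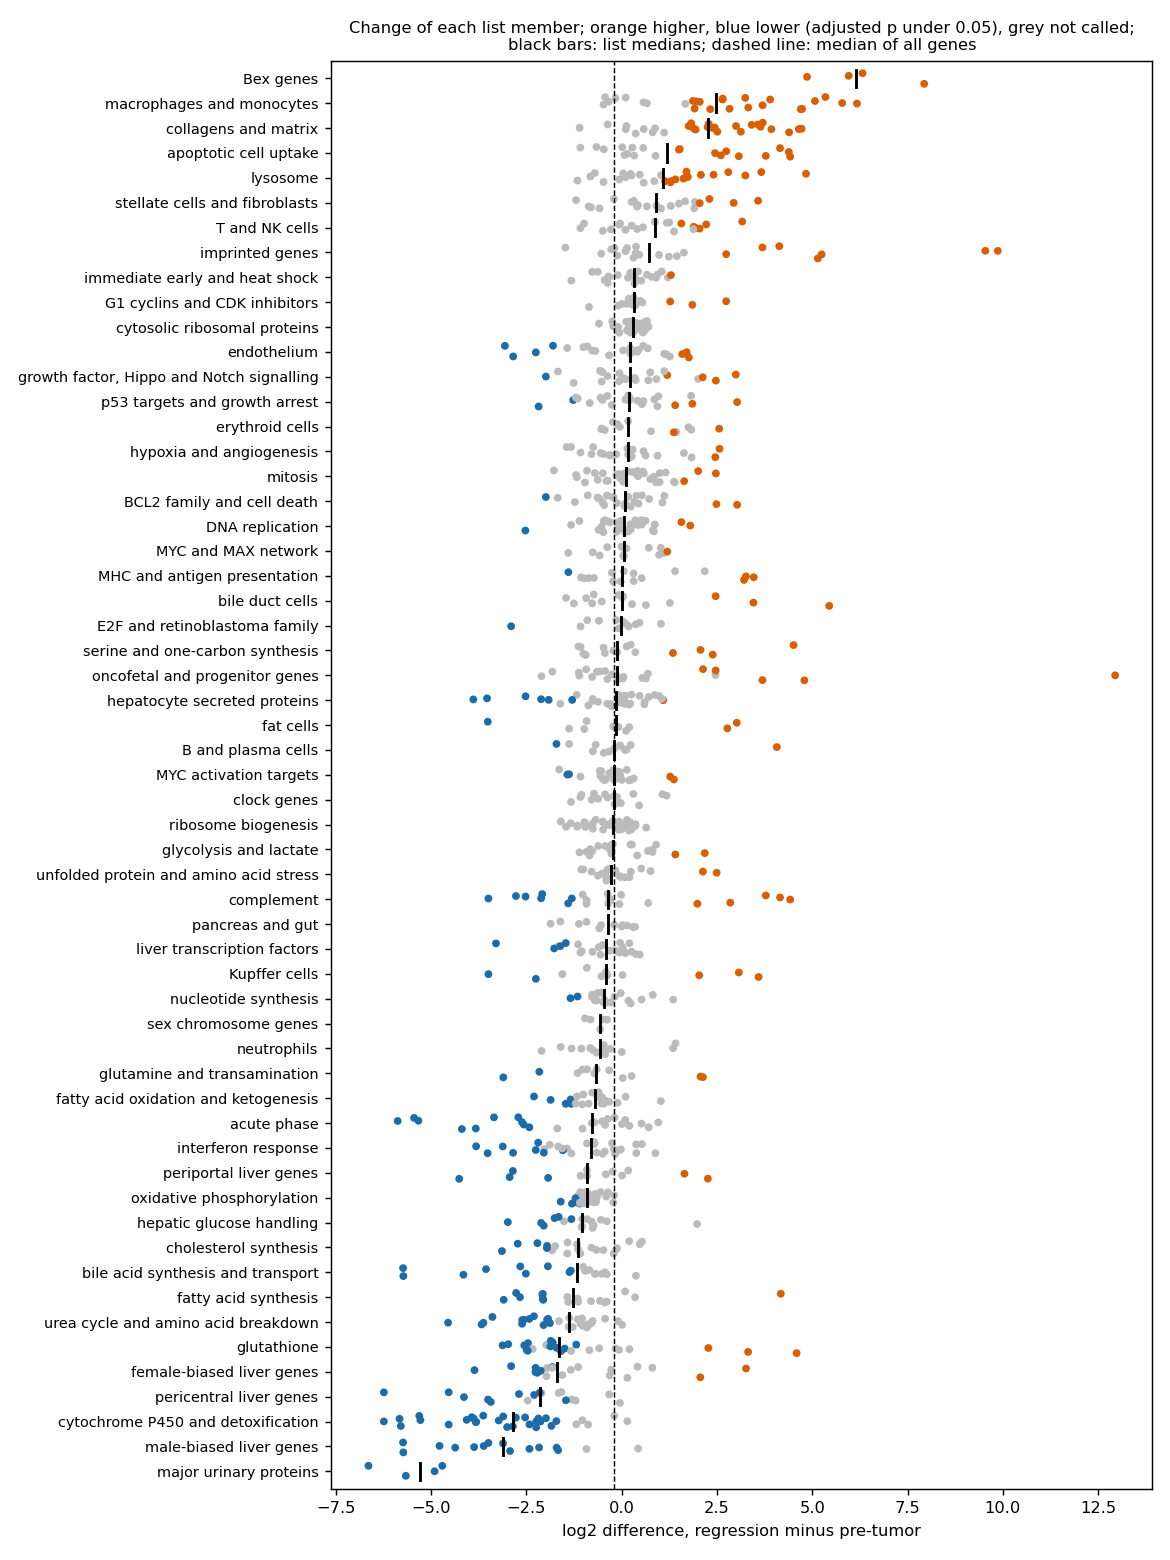
Change of each tested member (regression minus pre-tumor, log2) for the gene lists named on the vertical axis; orange points were called higher, blue points lower and grey points not called, the black bar is the list's median and the dashed line the median of all genes (−0.21). The called macrophage and matrix members (18 and 19) lie to the right of the dashed line and the called P450 members (26) to the left, while the medians of the MYC target and ribosome biogenesis lists fall close to it.

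Acute phase genes, which the liver switches on in inflammation, fell in 10 of 25 cases and rose in 0 (median −0.57 relative to all genes, 9 to 10 falls over the alternatives). Saa1, a serum amyloid, was at 8.80, 9.09, 9.24 and 7.29 in pre-tumor liver and at 2.27, 2.64, 4.60 and 3.13 in regression, and fell by 5.44 ± 0.50 on the log2 scale (limma adjusted p = 8.13e-06). Its relatives Saa2 (−5.87 ± 0.92, n = 3 in regression) and Saa3 (−5.33 ± 0.59) fell too, as did Orm3 (−3.35 ± 0.40), an orosomucoid. Regression was not separated from tumor for Saa1 (change 0.64, limma adjusted p = 0.5). Most of the list was: 21 of the 25 were higher in regression than in tumors and 0 lower (16.8% of all genes called either way). The mean level of the list was 0.23 to 2.11 in tumors and 3.47 to 4.75 in regression. The serum amyloid genes are close copies whose probes may share signal.

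Interferon response genes fell in 8 of 30 cases and rose in 0 (median −0.60 relative to all genes). Cxcl9, a chemokine induced by interferon gamma, was at 4.16, 6.03, 3.54 and 2.24 in pre-tumor liver and at 1.43, 0.06, 0.27 and −1.05 in regression, and fell by 3.82 ± 0.69 (limma adjusted p = 0.00165). The antiviral gene Ifit1 fell by 3.51 ± 0.73, the GTPase gene Irgm2 by 2.85 ± 0.52 and Mx2 by 2.25 ± 0.49. The count was 5 with median centring, with the slide as a block and without pre-tumor array 3, regression array 2 or regression array 4. Complement genes moved both ways: 5 of 22 rose and 7 fell. The risers were the C1q chains, the positive regulator Cfp (2.85 ± 0.30) and, named after its values were seen, the receptor C5ar1 (1.99 ± 0.49), all made by myeloid cells. The liver-made terminal components C6 (−3.49 ± 0.49), C8a (−2.11 ± 0.34, n = 3 in pre-tumor liver) and C9 (−2.52 ± 0.41) were among those that fell. C6 is also counted in the Kupffer cell list above.

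Unlike the detoxification enzymes above, most genes in the list of secreted plasma proteins were not called. Of its 34 tested genes 1 rose and 6 fell, with a median 0.07 above that of all genes. The share called was 20.6%, against 9.93% of all genes. The 1 call higher was lost without pre-tumor array 1, 2 or 4, without regression array 2, 3 or 4, with the slide as a block, with median centring and with no filter. The median ran from −0.39 to 0.46 over the alternatives and was below 0 in 9 of them. Beside Alb, the thyroid hormone carrier Ttr (0.23 ± 0.40, limma adjusted p = 0.793), the apolipoprotein Apoa1 (0.60 ± 0.41, limma adjusted p = 0.397) and fetuin Ahsg (0.86 ± 0.44, limma adjusted p = 0.242) were not called. Apoc3 (−3.89 ± 0.66, n = 3 in pre-tumor liver) and Apoa5 (−3.53 ± 0.49), apolipoproteins of triglyceride transport, fell. Some secreted proteins of other lists also fell, among them the 4 tested major urinary proteins and Saa1. In fits that share these arrays, 33 of the 34 were lower in tumors than in pre-tumor liver (19.2% of all genes called either way) and 31 were higher in regression than in tumors (16.8% called either way). Of 24 liver transcription factors 4 fell and 0 rose (median −0.20 relative to all genes). The lower count was 1 with median centring and 2 without pre-tumor array 3, regression array 2 or regression array 4. Foxa1, a pioneer factor, was well above background on no regression array and at least 9.81-fold lower on the processed signals (limma adjusted p = 0.00158). Its log2 change was −0.60 in the authors' normalized table (limma adjusted p = 0.0451) and −0.13, not called, with normexp (limma adjusted p = 0.0755). The nuclear receptor Nr5a2 fell by 1.77 ± 0.39, a call lost with median centring (−1.52, limma adjusted p = 0.0681). Nr1i3 (−1.46, limma adjusted p = 0.0434), the receptor that senses drugs, and Zhx2 (−1.61 ± 0.47, limma adjusted p = 0.039), a repressor of Afp, were lost in 6 and 5 of 8 fits without 1 array, at adjusted p of up to 0.142. Hnf4a, the central hepatocyte regulator, gave −0.76 ± 0.37 (limma adjusted p = 0.224). Against controls, where 1613 genes were called (8.38%), Hnf4a was lower in regression (−1.62, limma adjusted p = 0.019).

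Amino acid breakdown and the urea cycle fell in 13 of 29 cases and rose in 0 (median −1.18 relative to all genes). Tdo2, which breaks down tryptophan, fell by 4.55 ± 0.61, Prodh, of proline breakdown, by 3.67 ± 0.50 and Aass, of lysine breakdown, by 3.62 ± 0.61. The count was 8 without pre-tumor array 3, 8 without regression array 1 and 7 without the 4 arrays of high E1A signal. The glutathione list had 13 of 24 lower and 3 higher (median −1.44 relative to all genes). The 3 that rose were the secreted peroxidase Gpx3 (4.59 ± 0.60), the membrane enzyme gene Ggt1 (3.32 ± 0.46) and Gpx7, well above background on no pre-tumor array and at least 4.73-fold higher on the processed signals (limma adjusted p = 0.00165). Gpx7 was not called in the authors' normalized table (0.53, limma adjusted p = 0.083) or with normexp (0.11, limma adjusted p = 0.0824). Chac2, which degrades glutathione, was at least 7.60-fold lower on the processed signals, with log2 changes of −0.57 in the authors' table and −0.16 with normexp. The lower count was 8 without regression array 4 and 6 with median centring. Among 12 genes of glutamine and transamination 2 rose and 2 fell (median −0.47 relative to all genes). Those that fell were the alanine aminotransferases Gpt (−3.10 ± 0.42) and Gpt2 (−2.16 ± 0.34), and the glutaminase gene Gls2 (−0.90 ± 0.44, limma adjusted p = 0.227) was not called.

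Fuel genes of liver also lay lower. In hepatic glucose handling 6 of 17 fell and 0 rose (median −0.83 relative to all genes; 2 fell with median centring, and without pre-tumor array 3 the median was −0.35 with 4 falls). Khk, which phosphorylates fructose, fell by 2.98 ± 0.45, Ppp1r3b of glycogen synthesis by 2.04 ± 0.49 and Ugp2, of the same route, by 1.65 ± 0.35, while liver pyruvate kinase Pklr gave −1.04 ± 0.45 (limma adjusted p = 0.172). In fatty acid synthesis 7 of 18 fell and 1 rose (median −1.07 relative to all genes; 4 fell without pre-tumor array 3 or regression array 4). The riser was the desaturase Scd2 (4.18 ± 0.69), on 2 pre-tumor arrays well above background and not called with normexp (0.79, limma adjusted p = 0.167), and Insig2 (−2.08 ± 0.28), Elovl5 (−2.07 ± 0.36) and Elovl6 (−2.06 ± 0.44) were among the genes that fell. Cholesterol synthesis had 5 of 21 lower and 0 higher (median −0.93 relative to all genes; 3 to 10 falls over the alternatives), among them Idi1 (−3.14 ± 0.62) and Hsd17b7 (−2.72 ± 0.43). Fatty acid oxidation had 5 of 22 lower and 0 higher (median −0.49 relative to all genes; 3 without pre-tumor array 3, regression array 3 or regression array 4), among them the peroxisomal Acaa1b (−2.30 ± 0.49). In oxidative phosphorylation 6 of 30 fell and 0 rose (median −0.70 relative to all genes), with Ndufb3 of complex I at −1.60 ± 0.30. All 30 changes were below 0, but the count was 0 with median centring, 16 in the authors' normalized table, and 1 to 3 without pre-tumor array 1 or 3 or any 1 regression array. Genes with the largest falls that were well above background on no regression array were Ces1f, Sntg2, Apol9a, Elovl3 and Pdilt, with limma adjusted p of 7.99e-05 or lower on the processed signals. On that scale Ces1f, a carboxylesterase, was at least 55.3-fold lower, with log2 changes of −2.41 in the authors' normalized table and −0.80 with normexp. Sntg2 was at least 37.4-fold lower (−1.92 and −0.64 in the other 2) and Apol9a at least 27.4-fold (−1.60 and −0.57). Elovl3, which elongates fatty acids, was at least 27.0-fold lower (−1.56 and −0.49) and Pdilt at least 16.0-fold (−1.28 and −0.36).

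MYC target genes overlapped their pre-tumor levels. Of 31 genes that MYC is known to activate 2 rose and 2 fell, and the median was 0.02 above that of all genes. Their mean level was 1.67 to 1.90 in control liver, inside the pre-tumor range of 1.47 to 2.22. It was 3.45 to 3.64 in tumors and 1.38 to 1.84 in regression. Regression thus lay below every tumor and overlapped pre-tumor liver, but only through pre-tumor array 4 (1.47). The other pre-tumor arrays were at 1.91 to 2.22, above every regression array. Of the 31 changes 24 were below 0, as was the median of all genes (−0.21). The list median relative to all genes ran from −0.45 to 0.15 over the alternatives and differed in sign in 9 of them. In the fit of regression against tumor, which shares the regression arrays, 28 of the 31 were lower and 1 higher. Over all genes 16.8% were called either way in that fit. Pre-tumor liver against controls gave 0 limma calls among the 19249 genes, with 509 at an unadjusted p under 0.05. The mitochondrial chaperones Hspd1 (−1.42 ± 0.36, limma adjusted p = 0.017) and Hspe1 (−1.38 ± 0.34, limma adjusted p = 0.0148) fell, both calls lost without regression array 3 (limma adjusted p = 0.0626 and 0.0544). Cdk4, the kinase of G1 progression, was at 1.17, 1.95, 2.14 and 1.13 in pre-tumor liver and at 3.36, 3.27, 2.68 and 2.18 in regression. It rose by 1.27 ± 0.36 (limma adjusted p = 0.0319), a call lost in 5 of 8 fits without 1 array (pre-tumor 1 or 4, regression 1, 2 or 3), and Tfrc was the other riser.

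Ribosome genes gave no call against pre-tumor liver. Of 35 ribosome biogenesis genes 0 were called in limma (median −0.01 relative to all genes), with 0 higher and 7 lower at an unadjusted p under 0.05 and 3 lower in the authors' normalized table. Rrs1 (−1.59 ± 0.51, limma adjusted p = 0.0614) and Heatr1 (−1.46 ± 0.45, limma adjusted p = 0.053), both of ribosome assembly, had the largest changes, and both were called without pre-tumor array 2 (limma adjusted p = 0.0215 and 0.0224). Of 40 cytosolic ribosomal proteins 0 were called in limma (median 0.52 relative to all genes), with 0 at an unadjusted p under 0.05 either way and 6 higher in the authors' normalized table. Rpl28 gave 0.71 ± 0.74 and Rps14 0.69 ± 0.46. Against tumors, regression was lower for 26 of the 35 and for 31 of the 40 (16.8% of all genes called either way). Of 20 genes of nucleotide synthesis 2 fell and 0 rose (10% called against 9.93% of all genes, median −0.26 relative to all genes). Both, Paics (−1.16 ± 0.34) and Atic, act in purine synthesis, and their calls were lost in 6 and 4 of 8 fits without 1 array. Atic was well above background on 1 pre-tumor and no regression array, and its change turned to 0.02, not called, in the authors' normalized table (limma adjusted p = 0.964) and with normexp (limma adjusted p = 0.74).

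Most division genes were not called against pre-tumor liver. The share called was 8.11% of replication and 8.33% of mitosis genes, near the 9.93% of all genes. Of 37 DNA replication genes 2 rose and 1 fell (median 0.27 relative to all genes), and of 36 mitosis genes 3 rose and 0 fell (median 0.33 relative to all genes). Against tumors, 32 of the 37 and 34 of the 36 were lower in regression (16.8% of all genes called either way). Cenpa, the centromere histone, was at −2.70, −2.42, −3.61 and −2.15 in pre-tumor liver and at 0.04, −0.28, −0.35 and −0.39 in regression. It rose by 2.47 ± 0.33 (limma adjusted p = 0.000159) and its tumor mean was 1.47. The centromere gene Incenp rose by 1.64 ± 0.33, and the spindle gene Knstrn, well above background on 3 regression arrays and no pre-tumor array, was at least 4.03-fold higher on the processed signals (limma adjusted p = 0.00541). The log2 change of Knstrn was 0.56 in the authors' normalized table, and 0.13 with normexp, where neither Knstrn nor Incenp was called (limma adjusted p = 0.221 and 0.0538). Mcm2, of the replicative helicase, was at −3.31, −2.10 and −2.89 on pre-tumor arrays 1 to 3 and at −0.81, −0.78, −1.03 and −1.25 in regression, and rose by 1.80 ± 0.39 (n = 3 in pre-tumor liver, limma adjusted p = 0.00767). Mcm10, which helps start replication, moved the other way, from 1.58, 3.19, 2.86 and 2.67 to −0.59, −0.33, 0.66 and 0.47, and fell by 2.52 ± 0.45. The loading factor Cdt1 (1.57 ± 0.41, limma adjusted p = 0.0236) lost its call without pre-tumor array 1 or 3 or regression array 1 or 2. Mki67, the proliferation marker, was at −1.29, −1.92, −2.92 and −2.15 in pre-tumor liver and at −0.97, −0.79, −0.27 and −0.69 in regression. Those groups did not overlap, but the change of 1.39 ± 0.52 was not called (limma adjusted p = 0.112). Mki67 was called in the authors' normalized table (0.77, limma adjusted p = 0.0104) and without the 4 arrays of high E1A signal (1.74, limma adjusted p = 0.0291), and regression minus tumor was −2.35 (limma adjusted p = 0.0053).

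Of 12 genes of the E2F and retinoblastoma family 0 rose and 1 was called lower (8.33%, against 9.93% of all genes called either way). The 1 was E2f8, an atypical repressor. It was well above background on no regression array and at least 7.45-fold lower on the processed signals (limma adjusted p = 0.000563), but was not called in the authors' normalized table (−0.55, limma adjusted p = 0.122) or with normexp (−0.12, limma adjusted p = 0.304). Of 14 G1 cyclins and inhibitors 3 rose and 0 fell: Cdkn1c, Cdk4 and Cdkn1a. Cdkn1a, the p53-induced inhibitor p21, was at 1.67, −0.56, −0.24 and −0.46 in pre-tumor liver and at 2.24, 2.11, 2.51 and 0.97 in regression. The groups overlapped through pre-tumor array 1, and its rise of 1.85 ± 0.52 (limma adjusted p = 0.0323) was lost in 6 of 8 fits without 1 array (pre-tumor 2, 3 or 4, regression 1, 2 or 3). The cyclin gene Ccnd1 gave 0.13 ± 0.54 (limma adjusted p = 0.927). Cdkn1c thus was the only 1 of the 3 called in every leave-out fit.

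A few metabolic genes that were high in tumors lay between tumor and pre-tumor levels. In serine and one-carbon synthesis 4 of 15 rose and 0 fell (median 0.09 relative to all genes; 2 without the 4 arrays of high E1A signal). Psat1, of serine synthesis, was at −1.32, 0.14, −1.81 and −1.89 in pre-tumor liver and at 3.46, 3.55, 2.73 and 3.41 in regression, against a tumor mean of 5.68. It rose by 4.51 ± 0.47 (limma adjusted p = 2.36e-05), the next enzyme of the route, Psph, by 2.39 ± 0.46, the mitochondrial folate enzyme gene Mthfd1l by 1.35 ± 0.30 and the glutamine carrier Slc1a5 by 2.07 ± 0.50, the last lost without regression array 1 or 2 (limma adjusted p of up to 0.0516). Asns, asparagine synthetase, was at 0.24, 0.12, −0.91 and 0.17 in pre-tumor liver and at 2.03, 2.12, 1.94 and 2.05 in regression, and rose by 2.13 ± 0.33. The 4 regression arrays lay close together and above every pre-tumor array, and the tumor mean was 3.79. In glycolysis 2 of 21 rose and 0 fell (median −0.02 relative to all genes). The share called, 9.52%, was near the 9.93% of all genes. Pkm, the pyruvate kinase of growing cells, was at 0.37, 1.30 and 0.04 on pre-tumor arrays 1 to 3 and at 3.59, 2.71, 2.27 and 2.42 in regression, and rose by 2.18 ± 0.42 (n = 3 in pre-tumor liver, limma adjusted p = 0.00314). Regression was below the tumor mean of 4.63 (regression minus tumor −1.88, limma adjusted p = 0.0036). Hk1 (1.41 ± 0.41, limma adjusted p = 0.041) lost its call in 7 of 8 fits without 1 array, all but the fit without pre-tumor array 2, and its probes ran from −0.98 to 1.41. Hk2 (0.69 ± 0.50, limma adjusted p = 0.434) and Ldha (−0.32 ± 0.35, limma adjusted p = 0.634) were not called.

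Of 25 genes of the BCL2 family and cell death 2 rose and 1 fell (median 0.29 relative to all genes), a share near that over all genes (5.02% higher and 4.91% lower). Bcl2l11, which encodes the killer protein BIM, was at −0.24, −1.09, −1.24 and −0.27 in pre-tumor liver and at 1.98, 1.68, 1.71 and 1.75 in regression. It rose by 2.49 ± 0.31 (limma adjusted p = 8.39e-05), and its tumor mean, −0.72, was in the pre-tumor range. Pmaip1, which encodes NOXA, another killer of the family, rose by 3.03 ± 0.67, and Birc2, an inhibitor of apoptosis, fell by 1.99 ± 0.47. Of 23 p53 targets 3 rose and 2 fell (median 0.41 relative to all genes). Sesn1, which restrains growth signalling, rose by 1.41 ± 0.31, and Gadd45g fell by 2.18 ± 0.63, a call lost in 6 of 8 fits without 1 array (pre-tumor 1, 3 or 4, regression 1, 2 or 4). The mean of the Sesn1 probes gave 0.94 with no call (limma adjusted p = 0.151). The other p53 target that fell, named after its values were seen, was the death receptor gene Fas (−1.27 ± 0.38). The lower count of the list was 0 or 1 in each of the 8 fits without 1 array. In the list of unfolded protein and amino acid stress 2 of 22 rose, Asns and Ddit4 (2.49 ± 0.62), and 0 fell (median −0.06 relative to all genes). The share called, 9.09%, was near the 9.93% of all genes. The Ddit4 call was lost without regression array 3 (limma adjusted p = 0.0574).

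In the remaining lists calls were few. Of 22 genes of growth factor, Hippo and Notch signalling 4 rose and 1 fell (median 0.44 relative to all genes). Ccn2, a matrix-bound target of YAP, was at −1.28, −1.39, −1.41 and −1.50 in pre-tumor liver and at 2.33, 1.30, 0.54 and 2.23 in regression, and rose by 2.99 ± 0.38 (limma adjusted p = 9.28e-05). Igfbp3, which binds IGF2, rose by 2.13 ± 0.43, the growth factor receptor Egfr fell by 1.99 ± 0.44, and the Notch target Hey1 (2.47 ± 0.62, limma adjusted p = 0.017) lost its call without regression array 1 (limma adjusted p = 0.0613). The count of risers was 2 without regression array 1. Of 22 hypoxia genes 2 rose and 0 fell (median 0.37 relative to all genes): Angpt2, which loosens vessels (2.46 ± 0.36), and Ndrg1 (2.57 ± 0.47). Of 21 immediate early and heat shock genes 1 rose, Klf6 (1.29 ± 0.31, limma adjusted p = 0.0123), and 0 fell. The shares called were 9.09% of hypoxia and 4.76% of immediate early and heat shock genes, against 9.93% of all genes. Of 17 clock genes 0 were called in limma, with 2 higher and 1 lower at an unadjusted p under 0.05.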

How the data were processed

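RNA of frozen liver or tumor was extracted with the mirVana kit, amplified over the whole transcriptome, labelled with Cy3 and hybridised to 1-colour Agilent mouse 4x44K arrays, per the labels' protocols. Signals were extracted with Feature Extraction 10.5.1.1, per the file headers. The intensity values used are the deposited processed signals, background-corrected by that software. The authors also deposited a table of normalized log2 values, whose method is not given in the sources used here. It served as an alternative.

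Levels were log2 of the processed signal minus the array's 75th percentile. Outlier spots (0.452% of gene values) were dropped and spots of a probe averaged. Probes well above background on at least 3 of 15 arrays were kept, and the brightest stood for its gene. Of 21335 gene symbols, 19957 were found in RefSeq's table (GRCm38.p6) and 4670 were updated. Promoters were RefSeq's. A single limma model (limma 3.58.1, R 4.3.3) of the 4 groups over 15 arrays was used, with no covariate, and was tested on simulated data. The number of arrays limits the precision. Genes without any array well above background in a group were given as bounds: the bright group's mean against the lowest signal well above background, or the probe's own where higher, on the scale of the processed signals. For the genes named, such a bound equalled the fitted change or lay just under it, and is no guaranteed minimum.

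The 57 gene lists (1147 genes, 1113 tested, 71 in more than 1 list), and the groups compared, were chosen with earlier results of these data known. Named genes were the 10 largest rises and falls without overlap, the 5 largest bounds each way, up to 4 called members of each list by adjusted p (or the 2 largest changes), and a set of genes of interest. Alternatives were quantile normalization, median centring, the authors' table, normexp on the median signal (the mean signal was not used here), no or a stricter filter, the slide or the replicate number as a block, a fit of the 8 arrays alone, a trended robust variance, the mean of probes, outlier spots kept, and leaving out each array. Normexp and the fit without the arrays of high E1A signal were chosen after seeing the data. A few of the named genes are not reported here.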

Additional observations from a re-analysis of the deposited data

Results flagged for a closer look

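Each named gene and each gene list was searched in the pre-tumor and in the regression group for an array far from its other 3 arrays by Dixon's criterion. So were the share of spots well above background, the median signal and the 75th percentile. The criterion was met in 32 of 540 groups. Groups with a dropped spot are counted among the 540 but could not meet it. Chance alone meets it in about 1 in 20 full groups of 4. Pre-tumor array 3 held 13 of the 32, regression array 1 held 6, regression array 3 held 5, regression array 4 held 4, pre-tumor array 2 held 2, and pre-tumor arrays 1 and 4 held 1 each. All values are levels on the log2 scale relative to the array's 75th percentile.

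Pre-tumor array 3 was high mostly for genes of the mature hepatocyte. Its level was the highest of its group for Cyp2j5 (5.19), the fructose kinase gene Khk (8.48), the carriers Slco1a1 (2.72) and Slco1b2 (5.98), the sterol enzyme gene Ebp (3.92), complement C6 (4.72), Cyp1a2 (6.12), Pigr (3.09), liver pyruvate kinase Pklr (4.95) and the Y-linked Ddx3y (0.80). The mean level of the hepatic glucose list was likewise highest there (4.13, others 2.76 to 2.89). The same array was the lowest for Asns (−0.91) and Thy1 (−2.53). Pre-tumor array 1 was the highest for Cdkn1a (1.67, others −0.56 to −0.24). Pre-tumor array 2 was the lowest for Cdkn1c (−1.25) and the highest for Hk1 (1.43). Pre-tumor array 4 had the lowest mean level of the MYC and MAX network (−0.24, others −0.17 to −0.16).

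In regression, array 1 was the highest for the mean level of macrophage and monocyte genes (2.98, others 2.20 to 2.24), for Tyrobp (6.85), for Pecam1 (2.59) and for Antxr1 (−0.44), and the lowest for Gpt2 (−0.48) and Orm3 (−1.42). Regression array 3 was the highest for Sntg2 (−3.38, not well above background), and for the mean levels of the bile duct (0.77) and erythroid lists (1.28), and the lowest for the serine enzymes Psat1 (2.73) and Psph (−0.27). Regression array 4 was the lowest for Gpc3 (0.15, others 2.02 to 2.06), for Col1a1 (3.01, others 4.99 to 5.36), and for the mean levels of the complement (3.29) and endothelium lists (−0.75).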

How the results depend on the processing

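Against 966 higher and 946 lower calls, 21 alternative settings gave 1321 to 2851 calls in all, and no gene called here was called in the opposite direction in any of them. The lower count fell outside 1.5 times its value in 3 settings: 568 with median centring, 621 with the slide as a block and 1682 with the replicate number as a block. Leaving out 1 array gave 1321 to 1947 calls, 658 to 919 higher and 646 to 1028 lower. The authors' normalized table gave 1408 higher and 1095 lower calls, and the fit without the 4 arrays of high E1A signal 747 and 774. Of 182 called genes among those named, 136 were called in all 21 settings, and 46 lost the call in at least 1: 24 without 1 array, 14 with the slide as a block, 23 without the high E1A arrays and, beside Atic, 4 in the authors' table (E2f8, Gpx7, Zhx2 and Derl3). Calls lost with the slide as a block were those of Hspd1, Cdk4, Tfrc, Cdkn1a, Hk1, Paics, Cpt2, Atp5a1, Ndufa9, Uqcrfs1, Zhx2, Tap2, Gadd45g and Trrap. Median centring lost most of these, and also those of Hspe1, Ugp2, Ppp1r3b, Atic, Acadvl, Ndufb3, Nr5a2 and Nr1i3. Calls lost with normexp were, beside Atic, those of Hspe1, Hspd1, Tfrc, Cdt1, Incenp, Knstrn, E2f8, Cdkn1a, Mthfd1l, Slc1a5, Gpx7, Scd2, Foxa1, Zhx2, Derl3 and Ddit4. Calls lost without the high E1A arrays included, beside Cyp2e1, those of Cyp2f2, Aldh1b1, H2-Ab1, Slc40a1, Mx2, Car3, Sesn1, Birc2, Mthfd1l and Klf6. Only Atic changed sign, to 0.02 in the authors' table (0.0225, limma adjusted p = 0.964) and with normexp (0.0232, limma adjusted p = 0.74); the cause was not tested. Of 57 list medians relative to all genes, 41 kept their sign throughout.

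The replicate numbers were not taken as pairing the samples, since the deviations of same-numbered arrays correlated at −0.44, 0.08, −0.13 and 0.28. With the replicate block 1169 genes rose and 1682 fell. Slide mates correlated at −0.16, 0.20, 0.09 and −0.13. The planned normexp on the mean signal was not run, since the files used here hold the median signal. Signals near background limit the size of the largest changes, and 16 higher and 46 lower genes have only a bound.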
